A study of Mus musculus with 4 samples.

Results

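The Trim genes encode tripartite motif proteins, most of them E3 ubiquitin ligases. They were taken from the array by name: a probe belonged to the family when its accession matched a RefSeq symbol made of Trim and a number, with Trim28 left out. The family was picked for description with the differences between the groups already known, so its counts and adjusted p-values are a description. RefSeq lists 68 such genes, 52 of them had at least 1 probe (82 probes in all) and 39 passed the filter on dim probes, of 19171 genes tested in the series. To pass, the probe of a gene had to be well above background on each of the 2 arrays of OSK, of OSK+Glis1 or of both.

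The cells were mouse embryonic fibroblasts without p53, 5 days after retroviral transduction. The control group received OSK, the reprogramming factors Oct4, Sox2 and Klf4 (Oct4 is the product of Pou5f1), and the other group received OSK and Glis1, a zinc finger factor related to the Gli proteins. By their labels both groups thus lacked p53 and received the OSK factors, and cells without transduction were not analysed here. Each group had 2 one-colour arrays (replicates 1 and 2), and nothing in the labels says whether the replicates came from separate cultures, so p-values measure the spread between these RNA samples, which may be technical. The labels give the OSK cells as embryonic fibroblasts and the OSK+Glis1 cells as induced pluripotent cells made from them. The sample titles, however, name both groups alike as embryonic fibroblasts without p53. The comparison asks what Glis1 adds to the OSK factors.

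All levels below are log2 processed signals minus the 75th percentile of the array, so 0 is the signal that 75% of spots stay under, and a difference is OSK+Glis1 minus OSK. Levels of different genes come from different probes and are not set against each other. Between 59.9% and 65.2% of spots were well above background on an array and 0 were saturated. Glis1 itself gave no check of the labels: its probe lay at -3.26 and -3.34 on the arrays labelled OSK and at -3.28 and -3.73 on those labelled OSK+Glis1, and no source used here says whether it reads the delivered copy. The same holds for the OSK factors: Sox2 lay at -5.82 and -5.44 in OSK, not well above background, and at -5.65 and -3.39 in OSK+Glis1, Pou5f1 was above background on 1 of the 2 OSK arrays (-4.52 and -5.72, against -2.19 and -1.08), and Klf4 lay between 2.84 and 3.60 on all 4 arrays. Directions refer to the groups as labelled. All 10 fibroblast markers were tested, with 0 higher and 4 lower in OSK+Glis1 (summed signal 470 and 428 times the percentile in OSK, 406 and 366 in OSK+Glis1). In the series 14.2% of all genes were called, 6.05% as higher and 8.17% as lower. Of the 10 markers 8 had negative differences and 2 positive ones, Fn1 (0.78) and Col1a2 (0.16), neither called. Of 7 measured pluripotency markers 3 were higher (Esrrb, Pou5f1 and Lin28a) and 0 lower, but all 3 passed the filter only through OSK+Glis1. Esrrb and Lin28a were dim on both OSK arrays and Pou5f1 on 1 of them, and 0 of the 2 markers above background on all 4 arrays were called (limma). Pou5f1 is also a delivered factor. No probe was matched to Nanog, and the markers' summed signal overlapped (1.93 and 0.758 in OSK, 0.793 and 1.68 in OSK+Glis1). In bulk RNA, fewer cells of a type and less RNA per cell cannot be told apart.

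Trim proteins share a RING finger, which binds the ubiquitin-charged E2 enzyme, 1 or more B-boxes and a coiled coil through which they dimerise, and they differ in the domain that follows. That last domain gives the family its branches. A PHD finger with a bromodomain makes nuclear co-regulators, NHL repeats bind RNA or protein, a COS box binds microtubules, and a SPRY domain recognises viral or cellular targets. Many SPRY members are induced by interferon and act in antiviral defence, and the group named MuRF acts in striated muscle. Some members lack the RING and are not thought to be ligases by themselves.

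Of the 39 tested members 7 rose and 3 fell in OSK+Glis1 at an adjusted p of 0.05 (limma, Benjamini-Hochberg adjustment over all genes). Trim61 rose 33.7-fold and Trim62 7.03-fold, Trim63 and Trim66 rose by at least 3.43-fold and 3.83-fold, and Trim33, Trim36 and Trim59 rose by 1.81-fold to 1.93-fold. Trim9 fell 12.1-fold, Trim16 7.19-fold and Trim15 at least 2.72-fold. In the series as a whole 14.2% of genes were called, 6.05% as higher and 8.17% as lower, against 25.6% of the tested members. Trim63, Trim66 and Trim15 passed the filter through 1 group only and so had to differ. Among the 36 members above background on all 4 arrays 7 were called (19.4%, against 11.9% of the 17346 such genes). The median difference of the members was 0.28, against 0.05 for all genes, and 26 were positive and 13 negative. Of all calls 42.5% were higher, a share that was 53% under median scaling and 54.4% in the deposited table. Groups without overlap were found for 25 members, or 64.1%, against 59.9% of all genes. Under a normexp background correction 0 members and 0 genes were called (limma; at an unadjusted p under 0.05, 4 members and 1411 genes), and with flagged local backgrounds replaced first, 7 of the 10 calls were kept and Trim15, Trim63 and Trim66, each dim in 1 group, were lost.

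**Figure D1:**
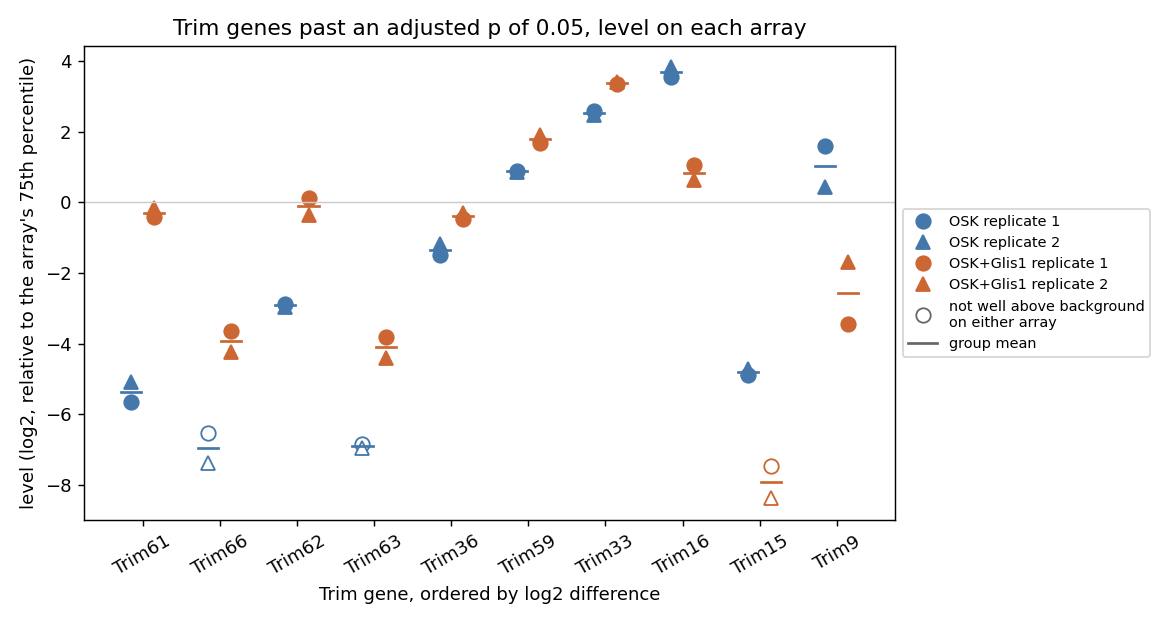
Level of the 10 called Trim genes on each array (log2, relative to the array's 75th percentile), blue for OSK and orange for OSK+Glis1, circles for replicate 1 and triangles for replicate 2, short lines for group means and open symbols where neither array of the group was well above background. The groups do not overlap for any of the 10 genes, which their selection by adjusted p made likely (59.9% of all 19171 genes had no overlap). Trim9 has the widest spread between arrays of a group, from -3.45 to -1.68 in OSK+Glis1.

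Promoter sequences are shown for 4 members on which the results turn: Trim61 and Trim62, the largest rises with signal above background in both groups, and Trim30a and Trim30d, whose levels differed most between the arrays labelled OSK+Glis1. Each is the 250 bases before the RefSeq start (build GRCm38.p6), 5′ to 3′ on the gene's strand. Capitals mark the match to GAAANNGAA, the core of the element bound by interferon-activated factors, searched on both strands.
Trim61, chr8:65018689-65018938, minus strand: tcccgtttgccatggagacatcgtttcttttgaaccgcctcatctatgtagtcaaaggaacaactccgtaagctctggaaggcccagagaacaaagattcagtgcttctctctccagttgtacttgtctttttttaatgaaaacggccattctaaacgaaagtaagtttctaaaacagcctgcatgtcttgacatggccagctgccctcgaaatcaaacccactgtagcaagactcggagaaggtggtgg
Trim62, chr4:128883794-128884043, plus strand: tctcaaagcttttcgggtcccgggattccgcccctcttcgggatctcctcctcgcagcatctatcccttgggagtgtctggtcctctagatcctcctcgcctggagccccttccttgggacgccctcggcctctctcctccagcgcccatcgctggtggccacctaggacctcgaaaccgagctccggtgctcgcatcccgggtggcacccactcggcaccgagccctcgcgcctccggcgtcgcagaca
Trim30a, chr7:104465194-104465443, minus strand: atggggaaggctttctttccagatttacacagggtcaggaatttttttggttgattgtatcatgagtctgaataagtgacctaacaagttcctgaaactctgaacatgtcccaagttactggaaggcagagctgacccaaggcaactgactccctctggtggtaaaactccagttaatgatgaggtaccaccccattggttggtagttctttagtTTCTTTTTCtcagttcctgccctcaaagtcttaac
Trim30d, chr7:104507850-104508099, minus strand: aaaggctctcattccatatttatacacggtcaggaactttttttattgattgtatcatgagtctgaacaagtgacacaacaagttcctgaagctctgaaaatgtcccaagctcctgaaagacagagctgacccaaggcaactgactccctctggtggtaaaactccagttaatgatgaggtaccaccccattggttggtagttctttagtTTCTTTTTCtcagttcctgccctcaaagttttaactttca

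The Trim30a and Trim30d windows are identical at 227 of 245 aligned bases (92.7%), and the match starts 35 and 40 bases before the start. A second Trim30a start held no match. GAAANNGAA occurs in 7.13% of the 32851 RefSeq windows of the same 250 bases before a start and in 8 of 66 Trim windows. Of the 30 tested members with a window, 5 held it: Trim12c, Trim25, Trim26, Trim30a and Trim30d. The Gli site core GACCACCCA was found in 0 of 66 Trim windows and in 0.225% of all windows, and TGGGGGGT, a core of Gli-similar sites, in 0 of 66 and 1.36%. The octamer ATGCAAAT, read by Oct4, was found in 1 Trim window, of a gene that was not tested, and in 1.60% of all. TGACNNNGC, the core of the antioxidant element, was in 9 of 66 Trim windows and in 10.2% of all windows. Of the 30 tested members with a window, 3 held it: Trim15, Trim59 and Trim61. The Gli and Gli-similar cores resemble each other and were counted separately, each on both strands. A match is a description of these letters, not a site, and RefSeq windows were given for 7 of the 10 called members, without Trim16, Trim33 and Trim36.

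The nuclear co-regulators are Trim24, Trim33 and Trim66, which read histone marks through a PHD finger and a bromodomain. All 3 were tested, 2 rose and 0 fell, where 14.2% of all genes were called. Trim33, known to act on Smad4 in Tgf-beta signalling, had levels of 2.59 and 2.48 in OSK and 3.36 and 3.42 in OSK+Glis1. Both OSK+Glis1 arrays were higher, and the difference was 0.86 ± 0.17 (SE, 1.81-fold, limma adjusted p = 0.0335). The call was lost when any 1 of the 4 arrays was left out (limma adjusted p between 0.0881 and 0.166).

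Trim66, a testis-rich relative that binds heterochromatin protein, lay at -6.53 and -7.37 in OSK, where it was not well above background, and at -3.65 and -4.24 in OSK+Glis1. It was at least 3.83-fold higher (fitted difference 3.00 ± 0.37 SE, limma adjusted p = 0.00981), a bound that takes the lowest well-above-background signal of each OSK array where the probe lay below it. The adjusted p belongs to the fitted difference and not to the bound. Both other Trim66 probes were dim on all 4 arrays, so the rise rests on 1 of 3 probes. The difference was 0.71 ± 0.22 (SE, limma adjusted p = 0.0665) under normexp with flagged local backgrounds replaced and -0.73 ± 1.08 (SE, 0.704) under plain normexp. Without OSK replicate 2 the call was lost (difference 2.58 ± 0.34 SE, limma adjusted p = 0.0528). Of the male germ cell markers 0 of 2 tested were called, Dazl was not above background on any array, and the summed signal was 0.185 and 0.245 in OSK and 0.164 and 0.161 in OSK+Glis1. Trim24, a partner of nuclear receptors that also marks p53 for degradation, had 3.36 and 3.14 in OSK and 2.76 and 3.14 in OSK+Glis1, with a difference of -0.30 ± 0.21 (SE, limma adjusted p = 0.422).

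Of the 4 members with NHL repeats, Trim3 and Trim32 were tested and 0 were called. Trim32, a ligase mutated in a limb-girdle muscular dystrophy, had levels of 0.78 and 0.48 in OSK and 1.03 and 1.08 in OSK+Glis1, with a difference of 0.43 ± 0.19 (SE, limma adjusted p = 0.219). Trim3, which is rich in brain, had a difference of 0.28 ± 0.18 (SE, adjusted p = 0.395 in limma). No probe was matched to Trim2 or to Trim71, a gene of stem cells.

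The members that carry a COS box or act in striated muscle moved in both directions: of 6 tested, 2 rose and 1 fell, where 14.2% of all genes were called. Trim63, the muscle atrophy ligase MuRF1, lay at -6.85 and -6.95 in OSK, not well above background, and at -3.81 and -4.40 in OSK+Glis1. Both OSK+Glis1 arrays were higher, by at least 3.43-fold (fitted difference 2.79 ± 0.25 SE, limma adjusted p = 0.00489). Trim63 passed the filter only through OSK+Glis1 and so had to differ. With each array left out in turn, its difference lay between 2.50 and 3.09. Its size depended on the background step: the difference was 0.61 ± 0.22 (SE, limma adjusted p = 0.116) under normexp with flagged local backgrounds replaced and -0.78 ± 1.05 (SE, 0.681) under plain normexp. Its close relatives were not called, as Trim54 (MuRF3) differed by -0.43 ± 0.19 (SE) and Trim55 (MuRF2) by -0.51 ± 0.25 (SE), with adjusted p of 0.221 and 0.263 in limma. Whether Trim63 differs from them was not tested. Of 4 tested striated muscle markers 2 rose and 1 fell, where 14.2% of all genes were called. Desmin (Des), dim on both OSK arrays, was at least 1.03-fold higher. Embryonic myosin (Myh3) lay at -5.66 and -7.07 in OSK, above background on 1 of those arrays, and at -2.30 and -3.36 in OSK+Glis1. Both Des and Myh3 passed the filter only through OSK+Glis1. Cardiac troponin T (Tnnt2) was 9.70-fold lower. The defining factors Myod1 and Myog, with Actn2 and Ckm, were not above background on any array. The summed muscle signal was 1.15 on each OSK array and 0.374 and 0.272 in OSK+Glis1, a fall that follows Tnnt2, the brightest of the list in OSK, and not Des or Myh3. Its part in the Trim63 result was not tested.

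Trim9, a ligase of neurons that acts in netrin-guided branching, had the largest fall among the tested members. It lay at 1.61 and 0.44 in OSK and at -3.45 and -1.68 in OSK+Glis1. The groups were apart but both were wide, with SDs of 0.83 and 1.25 (n = 2 each), and the fall was 12.1-fold (difference -3.59 ± 0.70 SE, limma adjusted p = 0.0351). Leaving out OSK replicate 1 (adjusted p of 0.151), OSK replicate 2 (0.11) or OSK+Glis1 replicate 1 (0.0706) ended the call in limma. Neuronal markers moved both ways beside it: the tubulin Tubb3 fell 11.1-fold and the RNA-binding protein gene Elavl3 rose 11.8-fold, 3 others were not called and Snap25 was dim on all arrays. Of all genes 14.2% were called. The markers' summed signal was 11.2 and 18.5 in OSK and 3.78 and 6.06 in OSK+Glis1. That fall follows Tubb3 and Stmn2 (difference -1.28, not called), the brightest of the list in OSK, while 3 of the 5 tested markers had positive differences. The part of these markers in the Trim9 result was not tested.

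Trim36, which binds microtubules and is known from the sperm acrosome, had levels of -1.50 and -1.17 in OSK and -0.46 and -0.31 in OSK+Glis1. Both OSK+Glis1 arrays were higher, by 1.93-fold (difference 0.95 ± 0.20 SE, limma adjusted p = 0.0427), a call lost when any 1 of the 4 arrays was left out (adjusted p between 0.0806 and 0.189). Trim46, which bundles microtubules in axons, had a difference of 0.32 ± 0.21 (SE, limma adjusted p = 0.394). Trim42 and Trim67 were below the filter and no probe was matched to Trim72.

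**Figure D2:**
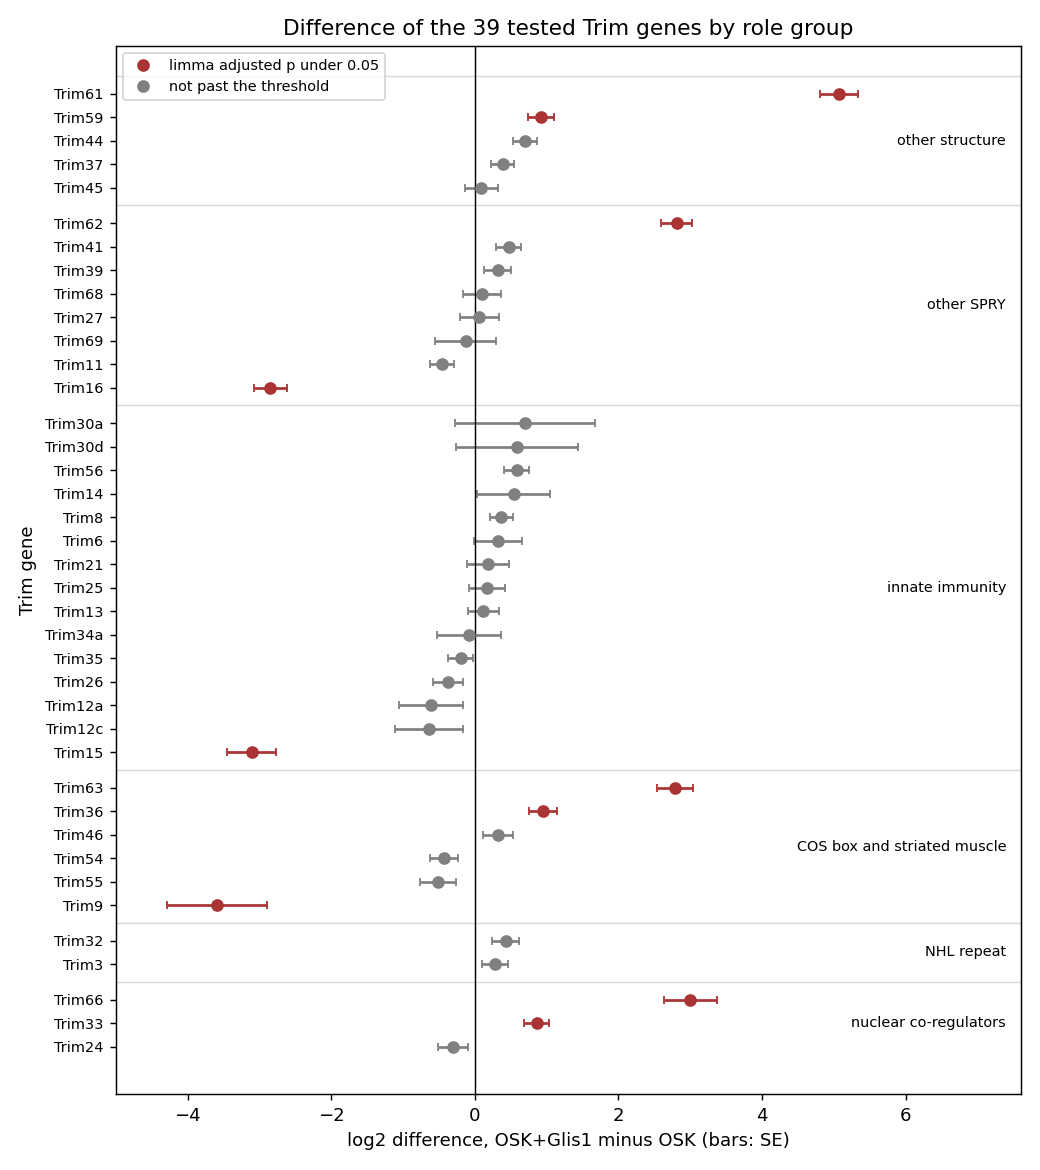
Difference of each of the 39 tested Trim genes (log2, OSK+Glis1 minus OSK, bars give the SE), grouped by role, with genes past an adjusted p of 0.05 in red. The innate immunity group holds 15 genes and 1 call, Trim15, while Trim30a and Trim30d carry the widest bars, 0.98 and 0.85.

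The largest group, with roles in innate immunity, had 15 tested members, of which 0 rose and 1 fell (6.67%, against 14.2% of all genes). Trim15, which also sits at focal adhesions, lay at -4.89 and -4.73 in OSK and at -7.46 and -8.38 in OSK+Glis1, where it was not well above background. It was at least 2.72-fold lower (fitted difference -3.11 ± 0.34 SE, limma adjusted p = 0.00752). Under normexp the difference was -0.68 ± 0.20 with flagged local backgrounds replaced and -1.69 ± 0.91 without (SE, limma adjusted p of 0.0593 and 0.582). Leaving out either OSK array ended the call in limma (adjusted p of 0.057 for replicate 1 and 0.0709 for replicate 2). Outside this group, Trim29, an epithelial member without a RING, was also dim in OSK+Glis1 but did not pass the filter, since it was well above background on 1 OSK array alone, with -4.17 and -5.17 in OSK and -8.09 and -8.07 in OSK+Glis1. Of 6 keratinocyte markers 2 fell and 1 rose, where 14.2% of all genes were called (summed signal 21.0 and 22.8 in OSK, 17.6 and 19.5 in OSK+Glis1). The markers' part in Trim15 and Trim29 was not tested.

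The other innate members stayed short of the threshold. Trim25, which ubiquitinates the RNA sensor RIG-I, had levels of 3.2 and 2.96 in OSK and 3.51 and 2.99 in OSK+Glis1. Its groups overlapped (difference 0.17 ± 0.25 SE, limma adjusted p = 0.705), and its second probe had a difference of -0.36. Trim8, which lifts cytokine signalling by removing Socs1, had 3.15 and 3.11 against 3.49 and 3.51 (0.37 ± 0.16 SE, limma adjusted p = 0.214). Trim56, an interferon-induced ligase linked to the Sting pathway, had 0.26 and 0.22 against 0.92 and 0.72 (0.58 ± 0.17 SE, limma adjusted p = 0.102). Both were apart between the groups, by small differences. Trim26 had 2.93 and 3.23 in OSK and 2.87 and 2.56 in OSK+Glis1 (-0.37 ± 0.21 SE, limma adjusted p = 0.335).

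Trim30a, Trim30d, Trim12a and Trim34a differed more between the 2 arrays labelled OSK+Glis1 than between the group means. Trim30a, an interferon-induced brake on NF-kB signalling, lay at -2.94 and -3.57 in OSK, and at -1.10 on OSK+Glis1 replicate 1 and -4.02 on replicate 2. The first OSK+Glis1 array was above both OSK arrays and the second below both, so the mean difference of 0.70 ± 0.98 (SE, limma adjusted p = 0.697) describes neither. Its paralog Trim30d did the same, with -3.71 and -4.22 in OSK and -2.10 and -4.65 in OSK+Glis1 (0.59 ± 0.85 SE, limma adjusted p = 0.706). Both probes of each gene showed the pattern, although near-identical copies can share a probe's signal, which was not tested.

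Trim12a and Trim34a were also lower on OSK+Glis1 replicate 2 than on replicate 1, by 1.24 and 1.23. Trim12a, a mouse counterpart of the retroviral restriction factor TRIM5, lay at 2.15 and 1.74 in OSK and at 1.95 and 0.71 in OSK+Glis1 (-0.61 ± 0.45 SE, limma adjusted p = 0.441). Trim34a lay at -1.27 and -1.65 in OSK and at -0.92 and -2.15 in OSK+Glis1 (-0.08 ± 0.45 SE, limma adjusted p = 0.93). Trim12c differed more between the OSK arrays, with -2.54 and -3.76 there and -3.49 and -4.09 in OSK+Glis1 (-0.64 ± 0.47 SE, limma adjusted p = 0.438). Without OSK+Glis1 replicate 2, Trim30a and Trim30d were called as higher, with differences of 2.16 ± 0.37 and 1.87 ± 0.33 (SE, limma adjusted p of 0.0419 and 0.0465). Without OSK+Glis1 replicate 1 the differences were -0.76 ± 0.37 and -0.68 ± 0.33 (SE), with adjusted p of 0.344 and 0.346 in limma.

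Over the 15 innate members, replicate 1 exceeded replicate 2 of OSK+Glis1 by more than 1 log2 unit in 5 genes (33.3%): Trim30a, Trim30d, Trim14, Trim12a and Trim34a. In the other direction there were 0. Trim14 was low, at -6.12 and -5.47 in OSK and at -4.58 and -5.93 in OSK+Glis1. The lowest signals well above background were -6.21 and -5.56 on the OSK arrays and -6.36 and -6.14 on the OSK+Glis1 arrays. Among all genes the share past 1 log2 unit was 2.88%, and among the other 24 members it was 1 gene, Trim69 (4.17%). The interferon response list, genes such as Isg15 and Irf7 that act up- and downstream of the interferon receptor, had 17 of 31 genes past that size and 0 in the other direction. Between the OSK arrays the counts were 1 of 15 innate members (6.67%) and 2 of 31 list genes (6.45%), against 3.63% of all genes. The median of replicate 1 minus replicate 2 in OSK was 0.27 and 0.30 for these sets and 0.04 for all genes. In OSK+Glis1 it was 0.71 and 1.09, against -0.02 for all genes. Usp18, which removes Isg15 from proteins, lay at 0.36 and -0.25 in OSK and at 1.83 and -0.73 in OSK+Glis1. Of the list, 1 gene rose and 0 fell between the groups (3.23%, against 14.2% of all genes). The riser was the chemokine Cxcl10 (9.78-fold, difference 3.29 ± 0.68 SE, limma adjusted p = 0.0404). It lay at -0.92 and -1.31 in OSK and at 3.18 and 1.18 in OSK+Glis1, so it too was lower on OSK+Glis1 replicate 2. Irf1, an early transcription factor of the response, had a difference of 1.11 ± 0.31 (SE, limma adjusted p = 0.0864). Leukocyte markers were low throughout: 4 of 8 with a probe were dim on all arrays, 0 of 2 tested were called, and the summed signal was 0.476 and 0.354 in OSK and 0.457 and 0.503 in OSK+Glis1.

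**Figure D3:**
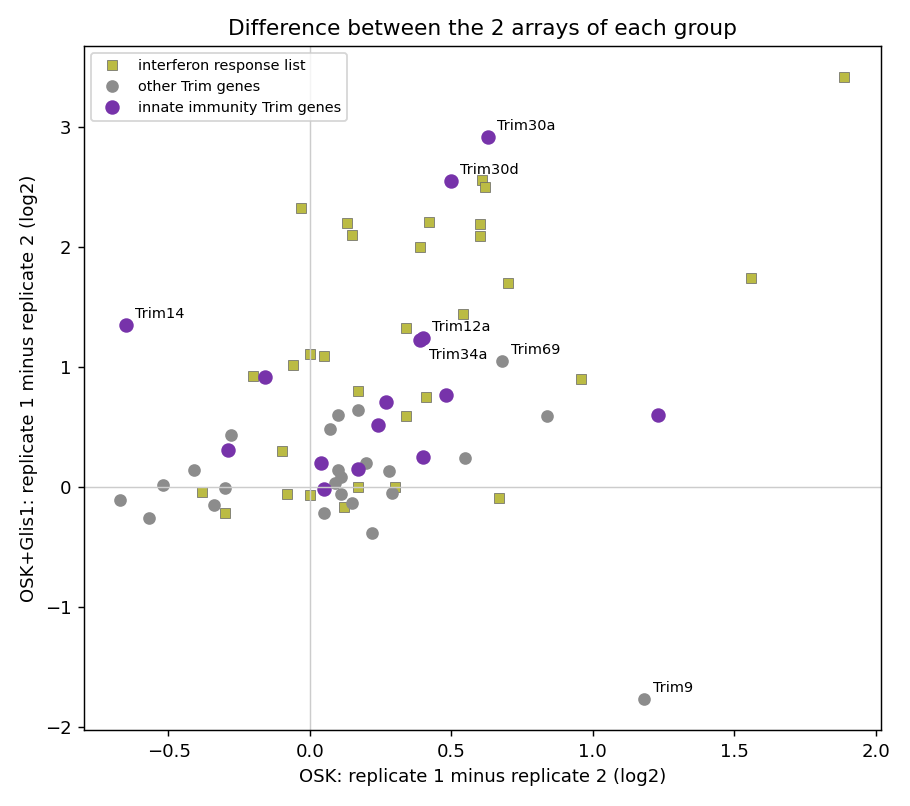
Difference between replicate 1 and replicate 2 within OSK (horizontal axis, log2) and within OSK+Glis1 (vertical axis, log2) for innate immunity Trim genes (purple), other Trim genes (grey) and the interferon response list (squares). Trim30a (0.63 and 2.92) and Trim30d (0.50 and 2.55) lie among the interferon response genes, while Trim9 (1.18 and -1.77) stands alone at the lower right.

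The remaining members with a SPRY domain had 1 rise and 1 fall among 8 tested, where 14.2% of all genes were called. Trim62, a ligase linked to epithelial polarity, lay at -2.89 and -2.96 in OSK and at 0.13 and -0.35 in OSK+Glis1. The arrays of each group lay close together and the groups far apart, a rise of 7.03-fold (difference 2.81 ± 0.22 SE, limma adjusted p = 0.00387) that kept its call with each array left out. Under normexp it was 2.21 ± 0.20 with flagged local backgrounds replaced and 1.30 ± 0.72 without (SE, limma adjusted p of 3e-04 and 0.582). Of its neighbours on chromosome 4, Azin2 also rose (1.90 ± 0.17 SE, limma adjusted p = 0.00497) and Zfp362 had a difference of 0.72 ± 0.19 (SE, limma adjusted p = 0.0748). Among the 20 nearest tested neighbours of the 10 called members, 2 were called, against 14.2% of all genes, and 1 of these in its member's direction. They were Azin2 and the Marchf1 gene beside Trim61, which fell (-4.50 ± 0.46 SE, limma adjusted p = 0.00633).

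Trim16, a RING-less protein of keratinocytes that helps clear damaged lysosomes, lay at 3.55 and 3.82 in OSK and at 1.06 and 0.63 in OSK+Glis1. Both OSK+Glis1 arrays were lower, by 7.19-fold (difference -2.85 ± 0.23 SE, limma adjusted p = 0.00404), with each array left out in turn as well. All 3 of its probes had negative differences (from -2.85 to -3.33), though the dimmest of them varied between arrays and the call was lost over the mean of the 3 (adjusted p = 0.0613 in limma). Trim41 and Trim11, the next nearest to the threshold here, had differences of 0.47 ± 0.17 and -0.46 ± 0.17 (SE, limma adjusted p of 0.143 and 0.165).

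Members of other structure had 2 rises and 0 falls among 5 tested, where 14.2% of all genes were called, and all 5 differences were positive. Trim61 had the largest difference among the tested members. It lay at -5.65 and -5.08 in OSK, close to the lowest signals called well above background on those arrays (-6.21 and -5.56), and at -0.42 and -0.16 in OSK+Glis1. The gap between the groups was far wider than that between arrays, a rise of 33.7-fold (difference 5.07 ± 0.26 SE, limma adjusted p = 0.00225), and the call held with each array left out. The size of the rise moved with the background step, to 3.16 ± 0.19 (SE, limma adjusted p = 5.19e-05) under normexp with flagged local backgrounds replaced and 1.87 ± 0.94 (SE, 0.582) under plain normexp. Trim59, a membrane-anchored member linked to proliferation, had 0.90 and 0.85 in OSK and 1.69 and 1.91 in OSK+Glis1 (1.89-fold, difference 0.92 ± 0.18 SE, limma adjusted p = 0.0332), while its second probe differed by 0.29. Each fit that left out an array lost this call, whichever of the 4 it was (adjusted p between 0.102 and 0.17) and over the mean of both probes (0.103). Trim44, which has a ubiquitin-protease-type zinc finger in place of the RING, lay just outside the threshold, with 0.96 and 0.86 against 1.68 and 1.54 (0.70 ± 0.17 SE, limma adjusted p = 0.0628) and a second probe at 0.15. Trim37, a ligase that limits centriole assembly, had a difference of 0.39 ± 0.16 (SE, limma adjusted p = 0.206). Just inside the threshold lay Trim36, Trim9 and Trim33, and just outside it Trim44, Trim56 and Trim41.

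Of 19 members with more than 1 probe past the filter, all probes had the same sign in 17, the exceptions being Trim13 and Trim25. Only 2 of these 19 were called members, Trim16 and Trim59, and both lost their call over the mean of their probes. Each other called member, Trim61, Trim62 and Trim9 among them, rests on 1 probe past the filter. Members below the filter were Trim7, Trim10, Trim17, Trim29, Trim30b, Trim31, Trim42, Trim50, Trim52, Trim60, Trim65, Trim67 and Trim80. Trim52 stood out among them by a single array, with -1.48 on OSK replicate 2 against -6.23 on OSK replicate 1 and -7.49 and -7.94 in OSK+Glis1, and it was named after its values were seen. No probe was matched to Trim2, Trim5, Trim23, Trim30c, Trim30e-ps1, Trim34b, Trim38, Trim40, Trim43a, Trim43b, Trim43c, Trim47, Trim58, Trim71, Trim72 or Trim75.

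Trim ligases take ubiquitin from charging enzymes. Of 17 measured enzymes that charge ubiquitin or Isg15, such as Uba1 and the E2 partners Ube2d3 and Ube2n, 0 were called in limma, against 14.2% of all genes. At an unadjusted limma p under 0.05 there were also 0, against 5606 of all 19171 genes. Their median difference was 0.11. Uba1 had a difference of -0.03 ± 0.26, Ube2d3 0.01 ± 0.17 and Ube2n 0.14 ± 0.20 (SE, limma adjusted p of 0.961, 0.976 and 0.699). The Isg15-activating enzyme Uba7 again differed between the OSK+Glis1 arrays, at 1.91 and -0.20 against -0.33 and -0.72 in OSK (difference 1.38 ± 0.71 SE, limma adjusted p = 0.282). Of the family relatives under other names, Pml and Mid2 were tested. Pml, which builds nuclear bodies, rose 2.20-fold, from 0.42 and 0.61 in OSK to 1.66 and 1.64 in OSK+Glis1 (1.13 ± 0.17 SE, limma adjusted p = 0.0173), and Mid2 had a difference of 0.07 ± 0.20 (SE, limma adjusted p = 0.857).

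**Figure D4:**
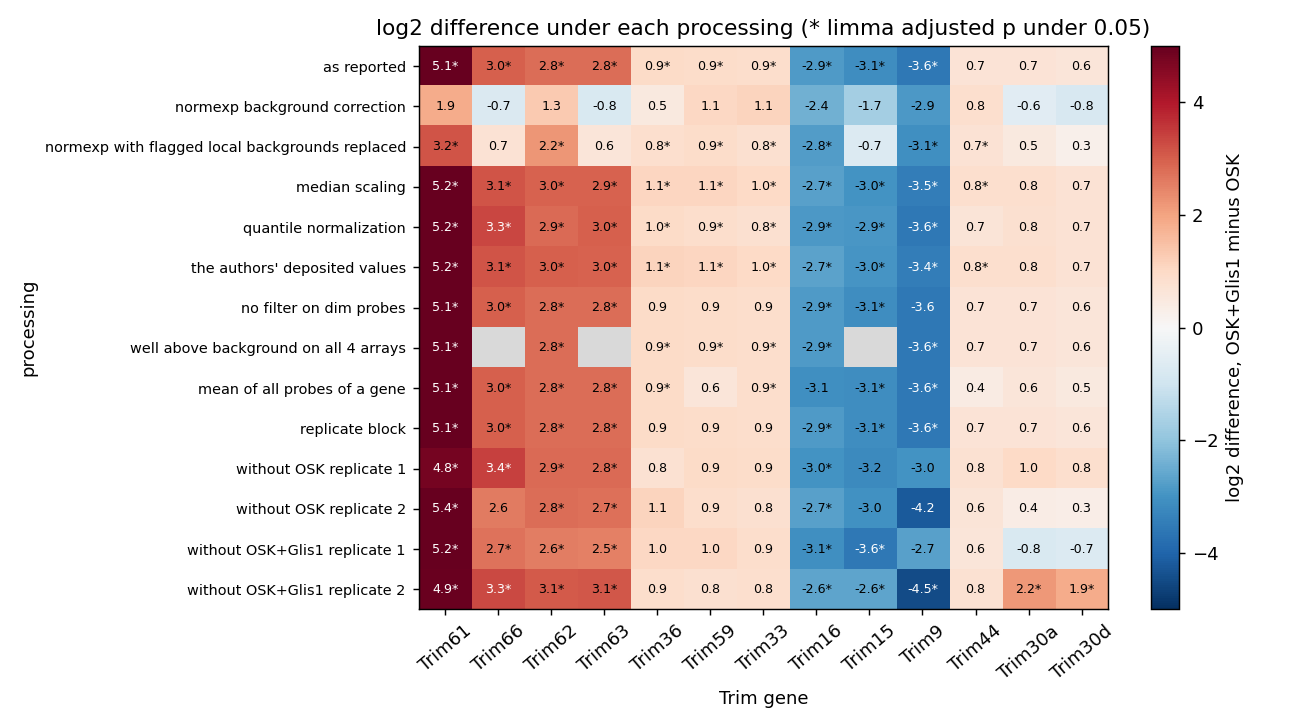
Difference of the 10 called Trim genes, Trim44, Trim30a and Trim30d (columns, log2) under each way of processing (rows), with a star where the limma adjusted p was under 0.05 and grey where the gene did not pass the filter. Trim61 and Trim62 carry a star in all rows but the normexp correction, and Trim30a and Trim30d change sign between the rows that leave out OSK+Glis1 replicate 1 and replicate 2.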

How the data were processed

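RNA of the 4 samples was hybridised to 4 one-colour Agilent mouse arrays on 1 slide. The deposited intensity values are processed signals (per the file headers, made by Feature Extraction 10.7.3.1, which subtracts background). The authors' deposited log2 table lay within 0.01 of these signals' log2 minus 1 constant per array for 99.8% of probes, and served as an alternative. Here log2 processed signals were centred on each array's 75th percentile, flagged and control spots were left out, spots of a probe were averaged, and the probe with the highest mean stood for its gene. Accessions were named through the RefSeq table (GRCm38.p6, 26933 probes matched). Groups were compared with limma 3.58.1 in R 4.3.3 over 19171 genes (2 residual and 2.82 prior degrees of freedom), with Benjamini-Hochberg adjustment and a threshold of 0.05, after the code was tested on simulated data. With 2 arrays a group, their number limits the precision. A gene dim in 1 group got a bound against the lowest signal well above background. The genes named were the called members (up to 14 a direction), up to 4 of each role group and pathway list (called first, then by signal or size), the 3 nearest the threshold on each side and the Trim12, Trim30 and Trim34 genes; others named were chosen after their values were seen. Members and lists were chosen with earlier results of these data known. Alternatives were other background corrections, scalings, filters and probe rules, a replicate block, and leaving out each array. The normexp alternatives used the median spot signal.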

Additional observations from a re-analysis of the deposited data

How the results depend on the processing

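Under 13 other ways of processing, the count of higher members (7) and lower members (3) was 0 and 0 with the normexp background correction, where 0 of all genes were called against 2725 (limma; 1411 genes and 4 members at an unadjusted p under 0.05), and Trim63 and Trim66 changed sign there, at -0.78 and -0.73 with adjusted p of 0.681 and 0.704. Without the filter 4 members were higher and 1501 genes were called. With the replicate block 4 members were higher, as Trim33, Trim36 and Trim59 were lost. The replicate numbers were not treated as pairing, since the deviations of same-numbered arrays correlated at 0.00941 and there were only 2 pairs. Leaving out 1 array gave 3 to 6 higher and 2 to 3 lower members and 1474 to 1866 called genes, with a lone array assumed to vary like the other group. The member totals of these fits include new calls and so overstate how many calls were kept. Trim30a and Trim30d were new without OSK+Glis1 replicate 2, Trim52 without OSK replicate 1 and Trim29 without OSK replicate 2. Of the 3 falls, Trim16 alone kept its call when either OSK array was left out. Trim61, Trim62, Trim63 and Trim16 kept their calls in all 4 such fits. Trim63, however, passed the filter only through OSK+Glis1 and so had to differ. The causes of these changes were not tested. The 10 called members kept their sign under median and quantile scaling and in the deposited values, and Trim44 was called under median scaling (0.0406), in the deposited values (0.0386) and with flagged backgrounds replaced (0.0222; limma adjusted p). Median scaling and the deposited values moved the median of all genes to 0.19 and 0.21, from 0.05. Members dim in 1 group have only a bound.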
